A study of Mus musculus with 12 samples.

Results

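The effect of unilateral nephrectomy was measured in the kidneys of Cre-positive mice of a Pkd1 model, in 6 of the 12 RNA-seq libraries of the study. The 3 libraries labelled CrePlus with nephrectomy (UNx CrePlus) were set against the 3 labelled CrePlus with a sham operation (sham CrePlus), and all 14970 genes with enough counts were tested, of 24062 genes in the deposited table. Both groups were adult Pkd1 mice that carried Cre and were induced with tamoxifen; they were operated on at an age of 6 to 8 weeks, and kidney tissue was taken 4 weeks later. The only stated difference between them is that UNx mice lost 1 kidney. The 3 UNx CreMinus and 3 sham CreMinus libraries, from Pkd1 mice without Cre under the same protocol, served for comparison. The Cre driver, the Pkd1 allele and the strain are not given in the labels used here, so the cells in which Cre acted are not known from them.

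Pkd1 encodes polycystin-1, a large membrane protein of the tubular epithelium whose loss leads to cysts in the kidney. After removal of 1 kidney the other enlarges, mainly by growth of its tubule cells, and in mice with reduced Pkd1 such a growth stimulus is known to bring cysts on faster. Cystic kidneys commonly gather macrophages and myofibroblasts, and Irf5, named in the study's title, encodes a transcription factor of the interferon regulatory factor (IRF) family that drives inflammatory genes in macrophages.

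Total counts were 41699032 to 42785476 in the 3 UNx CrePlus libraries, against 20500587 to 22480895 in the 3 sham CrePlus libraries, so that depth and surgery cannot be told apart within CrePlus. Xist and Y-linked counts read UNx replicates 1 and 2 as male and replicate 3 as female, and sham replicates 1 and 2 as female and replicate 3 as male. Sham replicate 1 is titled with its group where the other libraries carry a number. The first principal component of the 6 libraries held 53.4% of the variance and separated them by sex. Lead genes and most gene lists are therefore also described within males (2 UNx libraries against 1 sham library) and within females (1 against 2). Kidney identity was clear in all 6 libraries, with a summed level of 21640 to 22800 CPM (counts scaled to library size with the cpm function of edgeR) over 17 proximal tubule markers in UNx kidneys and 22800 to 28040 in sham kidneys. Sham replicate 3, the single male sham library, also held fat-tissue transcripts: Ucp1, the brown-fat uncoupling protein, stood at 33.8 CPM there and at no more than 0.343 CPM in the other 5. The 10 most abundant genes took 8.03% to 10.4% of counts in UNx kidneys and 7.43% to 10.0% in sham kidneys.

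Pkd1 lies on chromosome 17 at 24548689 to 24596514 in the mouse build GRCm38. It had 45.5, 39.6 and 45.1 CPM in UNx CrePlus kidneys, against 64.1, 46.1 and 45.9 CPM in sham CrePlus kidneys. The UNx values lay below the sham values, by a narrow margin in 2 of the sham libraries, and the log2 fold change of -0.26 ± 0.18 (SE, n = 3 each) did not pass (adjusted p = 0.829, edgeR quasi-likelihood test). Pkd1 averaged 56.8 ± 12.9 CPM in UNx CreMinus kidneys and 65.0 ± 10.3 CPM in sham CreMinus kidneys (SD, n = 3 each). Whole-gene counts do not separate deleted from intact exons, and the level over all cells does not show in which cells the gene was deleted. Irf5 had 14.9, 27.6 and 11.3 CPM in UNx CrePlus kidneys and 16.5, 17.4 and 22.7 CPM in sham CrePlus kidneys. These values overlapped, and the log2 fold change was -0.08 ± 0.28.

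No gene passed an adjusted p of 0.05 in the edgeR test (0.0% of 14970), and the lowest adjusted p, 0.692, was shared by every gene given with that value here. At an unadjusted p under 0.05 there were 1022 genes (6.83%), of which 621 (4.15%) were higher in UNx kidneys and 401 (2.68%) lower. The 3 UNx libraries lay above all 3 sham libraries for 708 genes (4.73%) and below them for 756 genes (5.05%). DESeq2 on the same 12 libraries called 11 genes (0.0891% of 12344), 8 higher and 3 lower in UNx kidneys. The authors' deposited table of the same 6 libraries called 15 of 12633 genes (0.119%), 9 higher and 6 lower. Of these, 6 were shared, which is 40% of the authors' genes and 54.5% of those of DESeq2. DESeq2 on the 6 CrePlus libraries alone, an alternative added after seeing the data, called 20 genes (0.155% of 12923), among them all 15 of the authors' table. Each group held libraries read as male and as female, so not all libraries of a group came from the same mouse. Nothing beyond the listing of samples says that each library came from a mouse of its own. The p-values thus reflect variation among these libraries, part of which may be technical.

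Among the genes with the smallest p that were higher in every UNx kidney, several encode metabolic, epithelial and immune proteins. Aldh1a7, a cytosolic aldehyde dehydrogenase on chromosome 19 (20692953 to 20727556), had 45.8, 34.2 and 40.2 CPM in UNx CrePlus kidneys, against 20.6, 24.6 and 19.96 CPM in sham CrePlus kidneys. Its UNx libraries all lay well above its sham libraries, with a log2 fold change of 0.88 ± 0.15, or 1.00 in males and 0.83 in females. It passed in DESeq2 (adjusted p = 0.000907) and in the authors' deposited table (adjusted p = 0.0027). Aldh1a7 is a close copy of its neighbour Aldh1a1, and how reads that fit both were counted is not given in the sources used here. Aldh1a1 itself had 51.9, 21.9 and 62.4 CPM in UNx kidneys and 28.1, 40.7 and 11.2 CPM in sham kidneys, which overlapped.

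Clca1, a secreted protein of the chloride channel accessory family that is best known from mucus-producing epithelia, had 21.6, 19.6 and 8.29 CPM in UNx kidneys, against 6.06, 3.35 and 3.46 CPM in sham kidneys. Both male UNx kidneys stood far above the rest, and the log2 fold change was 1.94 ± 0.37, with 2.57 in males and 0.81 in females. Clca1 passed in DESeq2 (adjusted p = 0.00113) and in the authors' deposited table (adjusted p = 0.00409). Bcl6, a transcriptional repressor, had 79.5, 125 and 19.9 CPM in UNx kidneys, against 10.9, 16.3 and 9.83 CPM in sham kidneys. The female UNx kidney was close to the sham kidneys, so the pooled log2 fold change of 2.60 ± 0.57 combined 3.38 in males and 0.55 in females. Bcl6 passed in DESeq2 (adjusted p = 0.00113), while the authors' deposited table gave it an adjusted p of 0.193.

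Cxcl16, a chemokine that also exists in a membrane-bound form and draws cells bearing Cxcr6, had 85.2, 83.4 and 81.2 CPM in UNx kidneys and 60.7, 60.4 and 49.5 CPM in sham kidneys. The spread among UNx libraries was small beside the gap, and the log2 fold change was 0.55 ± 0.11, with 0.77 in males and 0.42 in females. It passed in DESeq2 (adjusted p = 0.0154) and in the authors' deposited table (adjusted p = 0.0239). Cd34, a surface sialomucin of endothelial and progenitor cells, had 56.0, 64.0 and 50.2 CPM in UNx kidneys and 41.9, 27.0 and 26.9 CPM in sham kidneys. Mlph, which links melanosomes and other granules to myosin, had 24.4, 20.6 and 24.6 CPM in UNx kidneys and 15.004, 16.7 and 17.2 CPM in sham kidneys. Both passed in DESeq2 but not in the authors' deposited table (adjusted p = 0.0801 for Cd34 and 0.157 for Mlph). Log2 fold changes in the edgeR fit were 0.83 ± 0.18 for Cd34 (1.16 in males, 0.54 in females) and 0.51 ± 0.10 for Mlph (0.39 in males, 0.63 in females). AW112010, an immune-cell transcript, had 3.50, 5.32 and 4.44 CPM in UNx kidneys and 2.59, 1.91 and 1.93 CPM in sham kidneys. Its log2 fold change was 1.04 ± 0.23, with 1.19 in males and 0.98 in females. AW112010 did not pass in edgeR, in DESeq2 or in the authors' deposited table.

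The genes lower in every UNx kidney included a cytokine-signalling inhibitor, a channel and transporters. Cish, an inhibitor of JAK-STAT signalling that growth hormone and other STAT5 activators induce, had 20.4, 15.4 and 26.9 CPM in UNx kidneys, against 55.0, 38.7 and 77.7 CPM in sham kidneys. No UNx kidney reached the lowest sham kidney, and the log2 fold change was -1.45 ± 0.31, with -2.12 in males and -0.80 in females. Cish passed in DESeq2 (adjusted p = 0.00783) and in the authors' deposited table (adjusted p = 0.00452). Kcnt1, a sodium-activated potassium channel on chromosome 2 (25863791 to 25918273), had 3.85, 5.61 and 7.49 CPM in UNx kidneys, against 10.1, 16.9 and 26.4 CPM in sham kidneys. Its log2 fold change was -1.65 ± 0.32, with -2.48 in males and -0.85 in females, and it passed in DESeq2 (adjusted p = 0.00123) and in the authors' deposited table (adjusted p = 0.0278). Pnpla2, the lipase that starts the breakdown of stored triglyceride, had 105, 118 and 112 CPM in UNx kidneys and 151, 148 and 136 CPM in sham kidneys. Its log2 fold change was -0.38 ± 0.09, with -0.28 in males and -0.42 in females. Pnpla2 passed in DESeq2 (adjusted p = 0.0499) but not in the authors' deposited table (adjusted p = 0.136).

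Slc5a3, which carries myo-inositol, a protective osmolyte of the renal medulla, into cells, had 76.5, 98.3 and 127 CPM in UNx kidneys and 185, 190 and 150 CPM in sham kidneys. Slc22a19, an organic anion transporter, had 121, 154 and 123 CPM in UNx kidneys and 182, 266 and 209 CPM in sham kidneys. Slc22a4, a carrier of ergothioneine and organic cations, had 72.0, 84.0 and 78.0 CPM in UNx kidneys and 94.2, 97.99 and 114 CPM in sham kidneys. These differences were modest, with log2 fold changes of -0.80 ± 0.20 for Slc5a3, -0.72 ± 0.18 for Slc22a19 and -0.39 ± 0.09 for Slc22a4. Within males and within females they were -0.78 and -0.57 for Slc5a3, -0.60 and -0.86 for Slc22a19, and -0.55 and -0.30 for Slc22a4. Slc16a11, a monocarboxylate transporter, had 10.2, 11.2 and 10.6 CPM in UNx kidneys and 16.7, 15.2 and 14.9 CPM in sham kidneys. Its log2 fold change was -0.54 ± 0.14, with -0.47 in males and -0.59 in females. None of these 4 genes passed in edgeR, in DESeq2 on the 12 libraries or in the authors' deposited table.

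**Figure D1:**
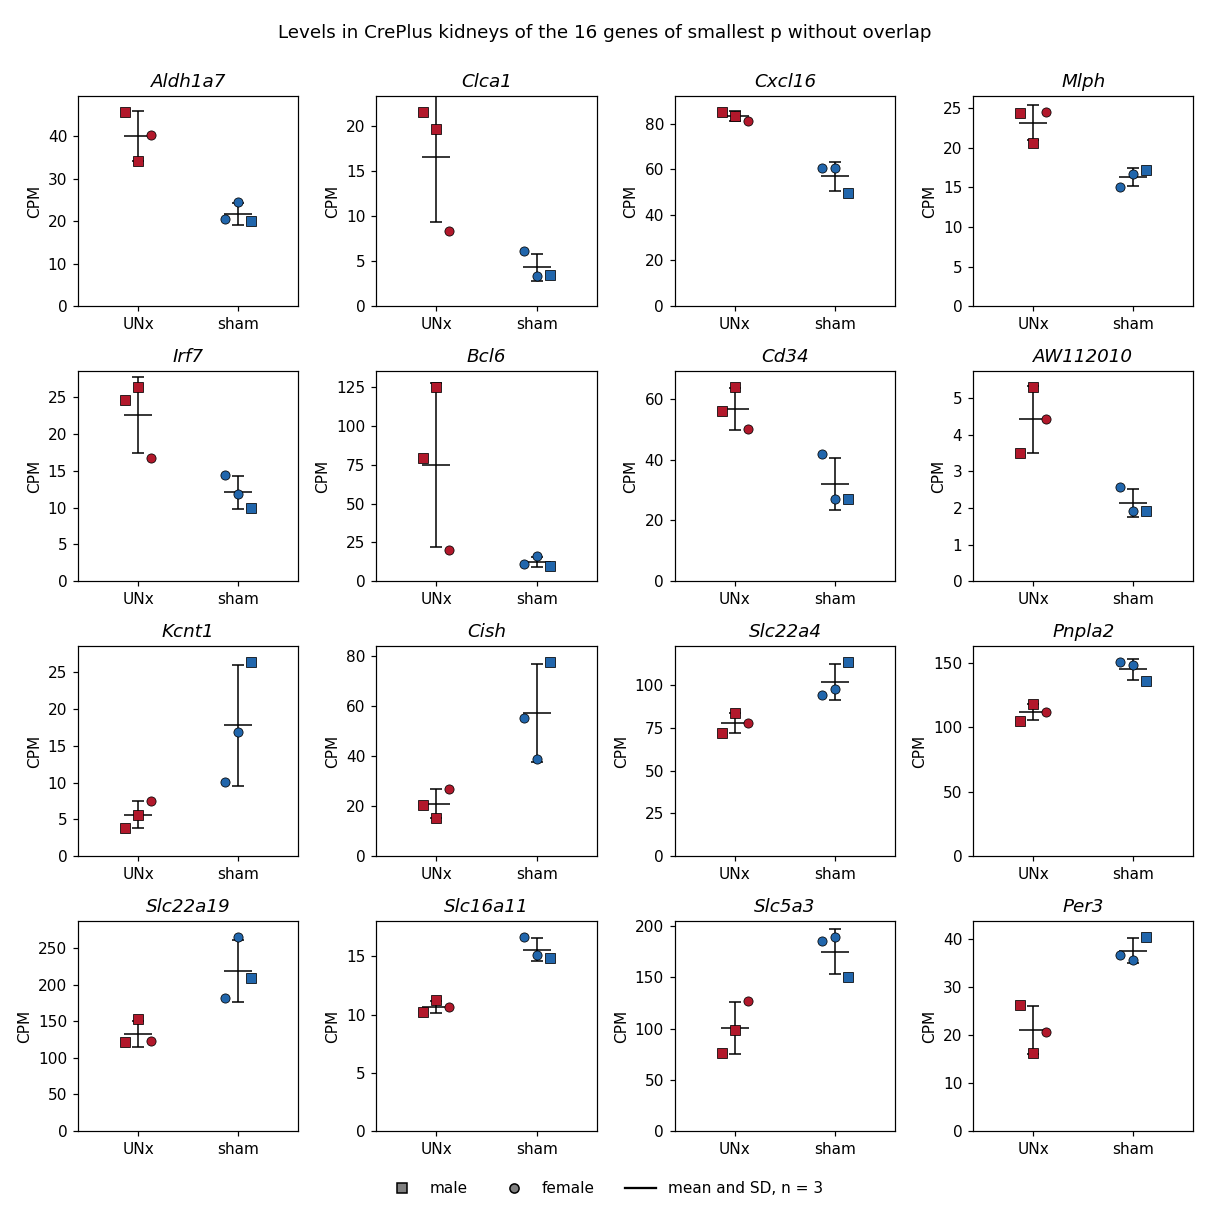
Levels in CPM (counts scaled to library size, y axis from 0) of the 8 genes higher and the 8 genes lower in all UNx CrePlus kidneys with the smallest p, with UNx libraries on the left and sham libraries on the right of each panel; squares are male and circles female libraries, and bars give the mean and SD (n = 3). Bcl6 and Clca1 were highest in the 2 male UNx libraries, while Cxcl16 stood at 81.2 to 85.2 CPM in all 3 UNx libraries.

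The 15 genes of the authors' deposited table all had groups that did not overlap. Over all genes the shares were 4.73% with UNx above and 5.05% with UNx below. The 15 were called from these same 6 libraries, so their lack of overlap was largely set by that choice. It follows from the lack of overlap that in all 15 the fold change had the same sign within males and within females. In the edgeR fit their adjusted p ran from 0.692 to 0.725. Pde4c, a cyclic AMP phosphodiesterase, came first in that table (log2 fold change -0.76, adjusted p = 0.000388). It had 82.98, 72.6 and 98.9 CPM in UNx kidneys, against 146, 164 and 157 CPM in sham kidneys, which left a wide gap, and its edgeR log2 fold change was -1.01 in males and -0.65 in females. Cyp24a1, the mitochondrial enzyme that breaks down active vitamin D, had 86.0, 70.9 and 215 CPM in UNx kidneys, against 12.1, 35.9 and 29.0 CPM in sham kidneys. Here the female UNx kidney was the highest, and the edgeR log2 fold change was 2.27 ± 0.53, with 1.44 in males and 3.17 in females.

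Igfbp3, a carrier of insulin-like growth factors, had 291, 348 and 290 CPM in UNx kidneys, against 191, 116 and 156 CPM in sham kidneys. The log2 fold change was 1.00 ± 0.31, with 1.03 in males and 0.92 in females. Rcan1, an inhibitor of calcineurin, had 121, 133 and 127 CPM in UNx kidneys and 97.7, 76.1 and 74.3 CPM in sham kidneys. Iigp1, an interferon-induced GTPase, had 19.3, 16.7 and 16.5 CPM in UNx kidneys and 10.98, 10.6 and 8.94 CPM in sham kidneys. Kcnq1ot1, a long noncoding RNA made antisense to Kcnq1, had 39.9, 36.6 and 35.6 CPM in UNx kidneys and 55.6, 50.1 and 58.0 CPM in sham kidneys. The library kit does not mark strand, so reads of Kcnq1ot1 cannot be separated from those of its host gene. Ocel1, a small protein with an occludin-like domain, had 6.86, 7.46 and 12.7 CPM in UNx kidneys and 19.4, 18.7 and 19.2 CPM in sham kidneys.

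**Figure D2:**
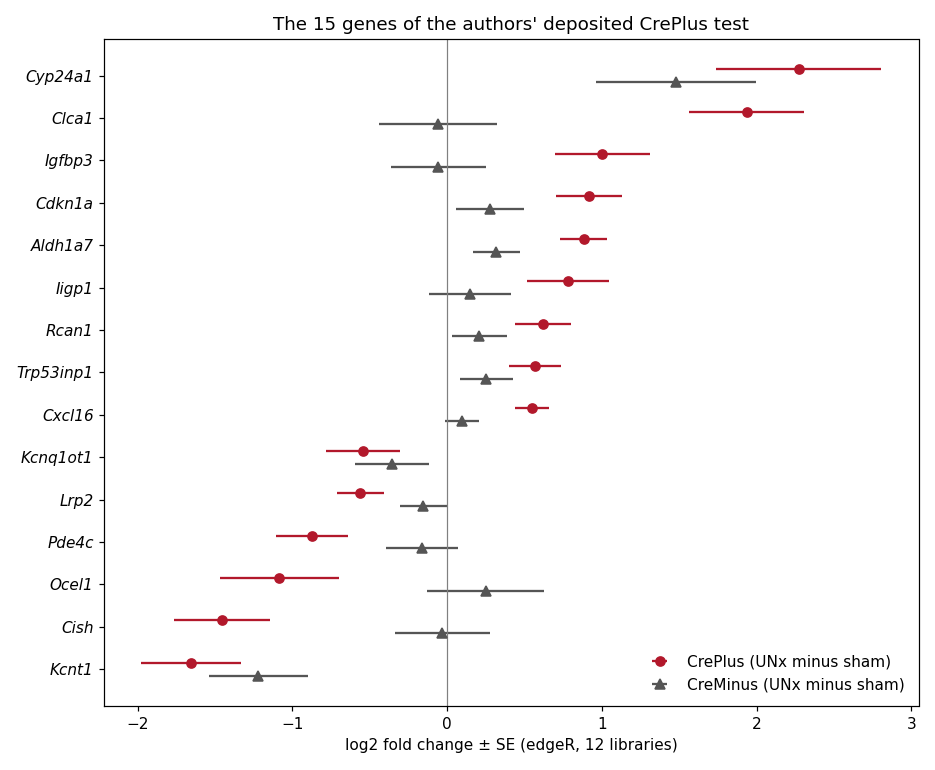
Log2 fold change (x axis) of nephrectomy against sham for the 15 genes called in the authors' deposited CrePlus table, from the edgeR fit to 12 libraries, in CrePlus (circles) and CreMinus kidneys (triangles), with bars of 1 SE (n = 3 libraries in each of the 4 groups). Cyp24a1 and Kcnt1 lay on the same side of 0 in both, while Cish stood at -1.45 in CrePlus and -0.03 in CreMinus kidneys.

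Proliferation genes were high in 2 of the 3 UNx kidneys, both male, and for all 20 tested these 2 lay above all 3 sham kidneys, as they did for 12.5% of all genes. All 20 also had a positive log2 fold change, with a median of 1.28 beside -0.01 for all genes, and 17 had an unadjusted p under 0.05 on the higher side (4.15% of all genes did), but none passed and none separated the groups. Mki67, the standard marker of dividing cells, had 43.3, 42.6 and 10.4 CPM in UNx kidneys and 12.1, 6.55 and 13.9 CPM in sham kidneys. Both male UNx kidneys stood above every sham kidney, and the female UNx kidney lay among them. Cdc20, an activator of the ubiquitin ligase that ends mitosis, showed the same order, with 14.1, 16.3 and 3.78 CPM in UNx kidneys and 3.81, 2.87 and 5.34 CPM in sham kidneys. Mcm3, a part of the replicative helicase, had 17.6, 17.1 and 7.60 CPM in UNx kidneys and 8.69, 6.50 and 6.92 CPM in sham kidneys. The median over the list was 1.33 within males and 0.05 within females, and it was 0.78 in the CreMinus comparison, where all 20 were positive. Summed over the list, the level was 409, 442 and 175 CPM in UNx CrePlus kidneys and 188, 169 and 217 CPM in sham CrePlus kidneys. In CreMinus kidneys it was 210, 238 and 130 CPM with nephrectomy and 158, 137 and 157 CPM with sham. There the highest kidney, UNx replicate 2, was female, and the female UNx replicate 3 lay below every sham kidney.

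The targets of p53, the stress-activated transcription factor, differed less in size and more evenly across libraries. All 15 were positive, with a median log2 fold change of 0.31, and 6 separated the groups with UNx above, beside 4.73% of all genes. Cdkn1a encodes p21, which halts the cell cycle by inhibiting cyclin-dependent kinases. It had 49.1, 46.8 and 37.3 CPM in UNx kidneys, against 25.2, 25.8 and 19.6 CPM in sham kidneys, a log2 fold change of 0.91 ± 0.21, with 1.29 in males and 0.55 in females. It passed in DESeq2 (adjusted p = 0.0499) and in the authors' deposited table (adjusted p = 0.0027). Trp53inp1, a p53 partner in the stress response, had 70.8, 69.9 and 57.4 CPM in UNx kidneys and 43.9, 42.3 and 47.4 CPM in sham kidneys, and passed in the authors' deposited table (adjusted p = 0.0493). The list median was 0.41 within males and 0.17 within females.

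Injury and matrix genes had positive medians within males and negative medians within females. Of 18 tubular injury genes 17 were positive, with a median log2 fold change of 0.53, but the median was 1.44 within males and -0.30 within females. Lcn2, the secreted injury marker NGAL, had 24.1, 16.3 and 0.733 CPM in UNx kidneys and 5.26, 1.82 and 1.04 CPM in sham kidneys. The female UNx kidney had the lowest level of the 6. Havcr1, the proximal tubule injury marker KIM-1, had 74.8, 51.2 and 33.0 CPM in UNx kidneys and 74.2, 3.92 and 24.8 CPM in sham kidneys, with sham replicate 1 as high as the highest UNx kidney. Anxa2, a calcium-dependent membrane-binding protein, was the clearest member, with 81.1, 78.4 and 64.5 CPM in UNx kidneys and 62.0, 47.4 and 40.4 CPM in sham kidneys. The list median was 0.26 without sham replicate 3, 0.29 without UNx replicate 1 and 1.077 without sham replicate 1.

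All 20 matrix and fibroblast genes were positive, with a median log2 fold change of 0.69, which was 1.56 within males and -0.02 within females. Tagln, an actin-binding protein of smooth muscle and myofibroblasts, had 63.7, 64.3 and 40.7 CPM in UNx kidneys and 37.6, 27.6 and 19.96 CPM in sham kidneys. Col4a1, a chain of basement membrane collagen, had 552, 568 and 302 CPM in UNx kidneys and 412, 199 and 250 CPM in sham kidneys. Col1a1, the main chain of fibrillar collagen, had 108, 68.0 and 24.9 CPM in UNx kidneys and 83.1, 16.9 and 13.4 CPM in sham kidneys. Sham replicate 1 was thus high in collagens while the other sham kidneys were low. The list median was 0.43 without sham replicate 3, 0.44 without UNx replicate 1 and 1.20 without sham replicate 1.

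Macrophage markers were higher in both male UNx kidneys than in any sham kidney for 13 of 19 tested markers, beside 12.5% of all genes. Of the 19, 18 were positive, with a median log2 fold change of 0.86, of 1.39 within males and of -0.07 within females. Ctss, a lysosomal protease of antigen-presenting cells, had 30.1, 36.7 and 18.6 CPM in UNx kidneys and 18.8, 9.04 and 9.44 CPM in sham kidneys. Cx3cr1, the fractalkine receptor of resident macrophages, had 18.2, 16.6 and 8.58 CPM in UNx kidneys and 10.98, 3.97 and 5.09 CPM in sham kidneys. The receptor Csf1r went the other way, with 69.2, 87.2 and 52.9 CPM in UNx kidneys and 81.0, 75.9 and 100 CPM in sham kidneys. Summed over the list, macrophage markers reached 635, 775 and 453 CPM in UNx kidneys and 649, 333 and 383 CPM in sham kidneys. In bulk tissue more cells of a type and more RNA per cell cannot be told apart.

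Lymphocyte markers were scarce. Their sum was 5.43 to 9.94 CPM in UNx kidneys and 4.35 to 5.93 CPM in sham kidneys over 10 tested genes, of which 8 were positive with a median log2 fold change of 0.60. That median was 0.86 within males, 0.16 within females and 0.35 without UNx replicate 2. Nkg7, a granule protein of cytotoxic cells, had 0.533, 0.911 and 0.412 CPM in UNx kidneys and 0.212, 0.191 and 0.494 CPM in sham kidneys. Cd79b, part of the B cell receptor, had 0.603, 1.16 and 0.870 CPM in UNx kidneys and 0.721, 0.526 and 0.395 CPM in sham kidneys. Of 12 chemokines and cytokines 11 were positive, with a median of 0.67, which was 0.97 within males and -0.02 within females. Complement genes had a median of 0.53, with 11 of 15 positive, 1.43 within males and 0.06 within females, and it was 0.34 without UNx replicate 1 and 0.89 without sham replicate 1. C4b, a component of the classical pathway, had 21.1, 16.1 and 3.25 CPM in UNx kidneys and 4.66, 2.25 and 5.83 CPM in sham kidneys. Cfd, a complement protease that fat cells secrete, stood at 8.60 CPM in sham replicate 3 and at no more than 0.229 CPM in the other 5 libraries.

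The 9 interferon regulatory factors were mixed, with 7 positive and a median log2 fold change of 0.24, of 0.70 within males and of 0.11 within females. The median was 0.08 without sham replicate 3 and 0.51 without sham replicate 1. Irf7, which amplifies the type I interferon response, had 24.6, 26.4 and 16.7 CPM in UNx kidneys, against 14.4, 11.8 and 9.93 CPM in sham kidneys. The groups did not overlap, and the log2 fold change was 0.90 ± 0.19, with 1.36 in males and 0.34 in females. Irf7 passed in DESeq2 (adjusted p = 0.0178) but not in the authors' deposited table (adjusted p = 0.084). Irf1, which interferon gamma induces, had 23.6, 25.3 and 21.9 CPM in UNx kidneys and 20.5, 16.6 and 13.9 CPM in sham kidneys, a log2 fold change of 0.48 ± 0.15. Irf5, described above, and Irf4, at 0.08, had the log2 fold changes nearest to 0.

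Interferon-stimulated genes, the downstream targets of these factors, were mostly separate between the groups. All 14 were positive in the pooled, the male and the female comparison, where 46.3%, 46.8% and 48.9% of all genes were. Of the 14, 11 had an unadjusted p under 0.05 (4.15% of all genes on the higher side), while none passed. The groups were separate with UNx above for 10 (4.73% of all genes). For these 10 the positive sign within each sex follows from the lack of overlap. For 1 of 19 macrophage markers, near the share over all genes, and 3 of 12 chemokines and cytokines, UNx libraries lay above sham libraries. The median log2 fold change of the interferon-stimulated genes was 0.66, with 1.05 within males, 0.26 within females and 0.08 in CreMinus kidneys. Ifi44, an interferon-induced cytoplasmic protein, had 22.0, 25.8 and 23.7 CPM in UNx kidneys and 18.4, 12.1 and 11.96 CPM in sham kidneys. Rsad2, which encodes the antiviral enzyme viperin, had 39.8, 42.2 and 43.5 CPM in UNx kidneys and 36.8, 24.2 and 26.4 CPM in sham kidneys. Ifit1, which binds foreign RNA, had 10.5, 7.73 and 6.87 CPM in UNx kidneys and 4.75, 5.26 and 3.80 CPM in sham kidneys. The chemokine Cxcl10 was less even, with 11.2, 13.3 and 6.43 CPM in UNx kidneys and 8.26, 4.97 and 3.76 CPM in sham kidneys.

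These genes are classically controlled through interferon-stimulated response elements, to which IRF and STAT proteins bind. Promoters of Ifi44, Rsad2 and Ifit1, the 3 members of smallest p, are shown because 14 of 14 list members had a positive fold change. They come from RefSeq on GRCm38.p6 (250 bases before to 50 after the start, 5′ to 3′ along the gene's strand), with the element's core, GAAANNGAAA or its reverse complement, in capitals. The windows are chr3:151749861-151750160 (minus strand) for Ifi44, chr12:26456403-26456702 (minus strand) for Rsad2 and chr19:34640639-34640938 (plus strand) for Ifit1.
Ifi44: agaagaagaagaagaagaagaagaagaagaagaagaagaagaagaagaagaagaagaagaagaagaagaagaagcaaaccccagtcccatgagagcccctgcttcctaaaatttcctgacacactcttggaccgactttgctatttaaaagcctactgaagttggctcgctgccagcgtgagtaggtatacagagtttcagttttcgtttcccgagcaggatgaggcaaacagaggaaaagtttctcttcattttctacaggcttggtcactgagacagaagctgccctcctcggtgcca
Rsad2: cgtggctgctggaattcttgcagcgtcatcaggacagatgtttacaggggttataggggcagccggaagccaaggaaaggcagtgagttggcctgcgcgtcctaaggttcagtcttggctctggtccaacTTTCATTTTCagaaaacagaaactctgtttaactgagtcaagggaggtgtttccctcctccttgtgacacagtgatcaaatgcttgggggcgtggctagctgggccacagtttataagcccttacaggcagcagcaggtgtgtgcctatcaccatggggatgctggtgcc
Ifit1: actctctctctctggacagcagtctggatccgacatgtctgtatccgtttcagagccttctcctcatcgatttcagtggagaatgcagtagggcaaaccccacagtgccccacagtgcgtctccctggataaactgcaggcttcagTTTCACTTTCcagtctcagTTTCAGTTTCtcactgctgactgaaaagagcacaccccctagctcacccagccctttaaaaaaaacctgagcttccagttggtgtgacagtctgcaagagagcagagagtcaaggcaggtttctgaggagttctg
Ifit1 held 2 matches, Rsad2 held 1 and Ifi44 held 0. Searched on both strands, the core was present in 8 of the 11 interferon-stimulated genes with a promoter in the table (72.7%), beside 448 of 11724 tested genes (3.82%). Of the 8 IRF genes with a promoter Irf2 alone held it, and the Irf7 window held 0 matches. A match is a description of the letters and not a binding site, and its absence from a window says nothing of the factor.

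**Figure D3:**
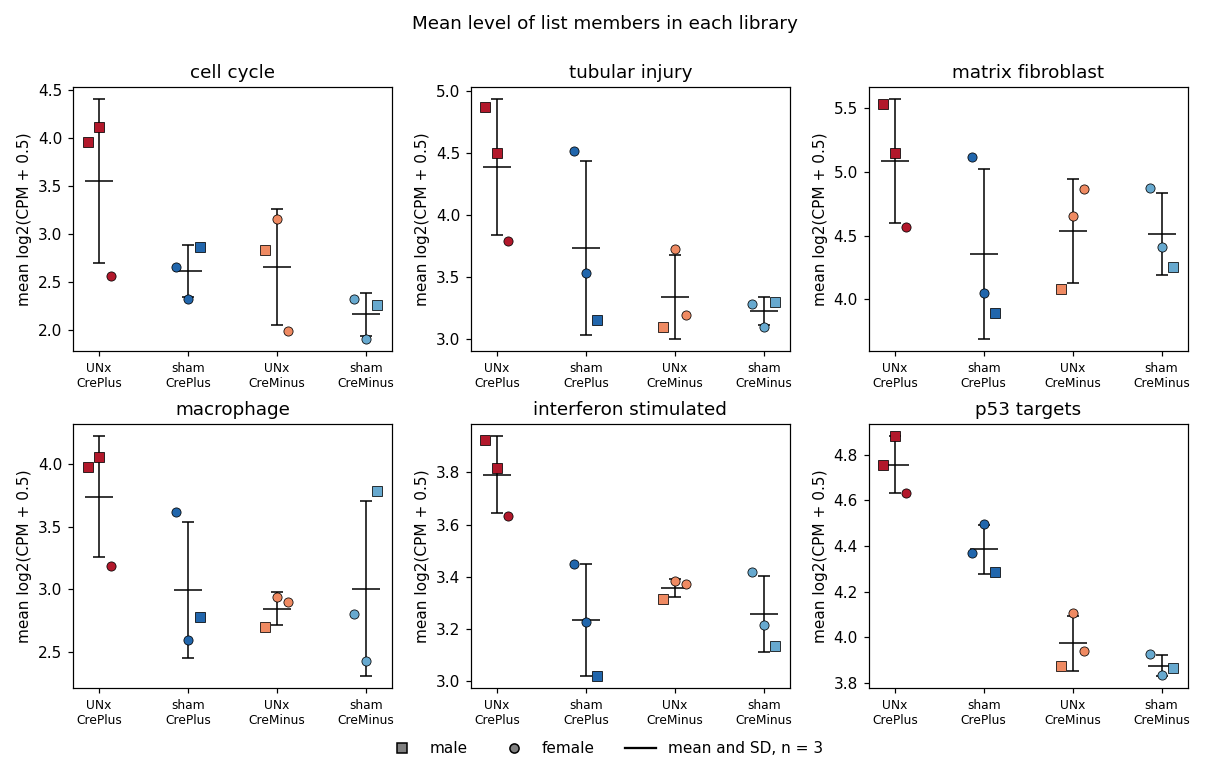
Mean level of each gene list in every library, as log2(CPM + 0.5) averaged over the tested members (y axis), for 6 lists in UNx CrePlus, sham CrePlus, UNx CreMinus and sham CreMinus kidneys; squares are male and circles female libraries, and bars give the mean and SD (n = 3). Interferon-stimulated genes and p53 targets were higher in all 3 UNx CrePlus libraries than in any sham CrePlus library, whereas cell cycle genes were high only in the 2 male ones.

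Tubule segments differed little, and mostly towards lower levels in UNx kidneys. Of 17 proximal tubule markers 7 were positive, with a median log2 fold change of -0.08 and a highest value of 0.41. UNx libraries lay below sham libraries for 4 of the 17, beside 5.05% of all genes, and above them for 0. Both endocytic receptors were among these 4, so the genes described next are not typical of the list. Lrp2, which encodes megalin, had 2176, 1908 and 2332 CPM in UNx kidneys, against 3110, 3421 and 2939 CPM in sham kidneys. Its log2 fold change was -0.56 ± 0.15, with -0.53 in males and -0.49 in females, and it passed in the authors' deposited table (adjusted p = 0.0294). Cubn, which encodes cubilin, the partner of megalin in protein uptake, had 530, 435 and 536 CPM in UNx kidneys and 776, 725 and 568 CPM in sham kidneys. Aqp1, the water channel of the proximal tubule and thin descending limb, had 781, 974 and 963 CPM in UNx kidneys and 995, 1483 and 1263 CPM in sham kidneys.

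All 14 collecting duct markers were negative, with a median log2 fold change of -0.31, though none of them separated the groups. Aqp3, the basolateral water channel of principal cells, had 91.2, 83.7 and 131 CPM in UNx kidneys and 134, 188 and 117 CPM in sham kidneys. Markers of the loop and distal tubule had a median of -0.30, with 3 of 13 positive, but of -0.11 within males and -0.05 within females, where 5 of 13 were positive in each. That median was -0.61 without UNx replicate 3, -0.17 without UNx replicate 2 and -0.20 without sham replicate 2. Egf, made in the distal convoluted tubule and loop, had 1290, 870.2 and 2065 CPM in UNx kidneys and 3005, 2257 and 1785 CPM in sham kidneys. The male sham kidney was the lowest of the sham kidneys for Egf and Aqp3, and within males and within females the collecting duct median was -0.14 and -0.02. Over both sexes it was -0.09 without UNx replicate 2, -0.07 without sham replicate 2, -0.67 without UNx replicate 3 and -0.53 without sham replicate 3. Podocyte markers had a median of -0.22 with 2 of 10 positive, but 6 of 10 were positive within males (median 0.17) and within females (0.02), so the pooled direction did not hold within either sex. Leaving out 1 library at a time gave podocyte medians of -0.46 (without UNx replicate 3) to 0.04 (without sham replicate 1). Endothelial markers were positive in 10 of 11, with a median of 0.36, of 0.58 within males, 0.25 within females and 0.64 without sham replicate 1. Pecam1, a junction protein of endothelial cells, had 102, 125 and 112 CPM in UNx kidneys and 100, 63.4 and 62.0 CPM in sham kidneys. Genes of the polycystin and cystic disease list had a median of -0.04, with 4 of 19 positive. That median was 0.03 without sham replicate 3 and -0.11 without sham replicate 2. UNx libraries lay below sham libraries for 4 of the 19, Pkd1 among them, beside 5.05% of all genes, and above them for 0. Cys1, the cilium protein mutated in the cpk mouse, had 43.4, 38.9 and 49.3 CPM in UNx kidneys and 49.5, 61.5 and 58.3 CPM in sham kidneys.

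**Figure D4:**
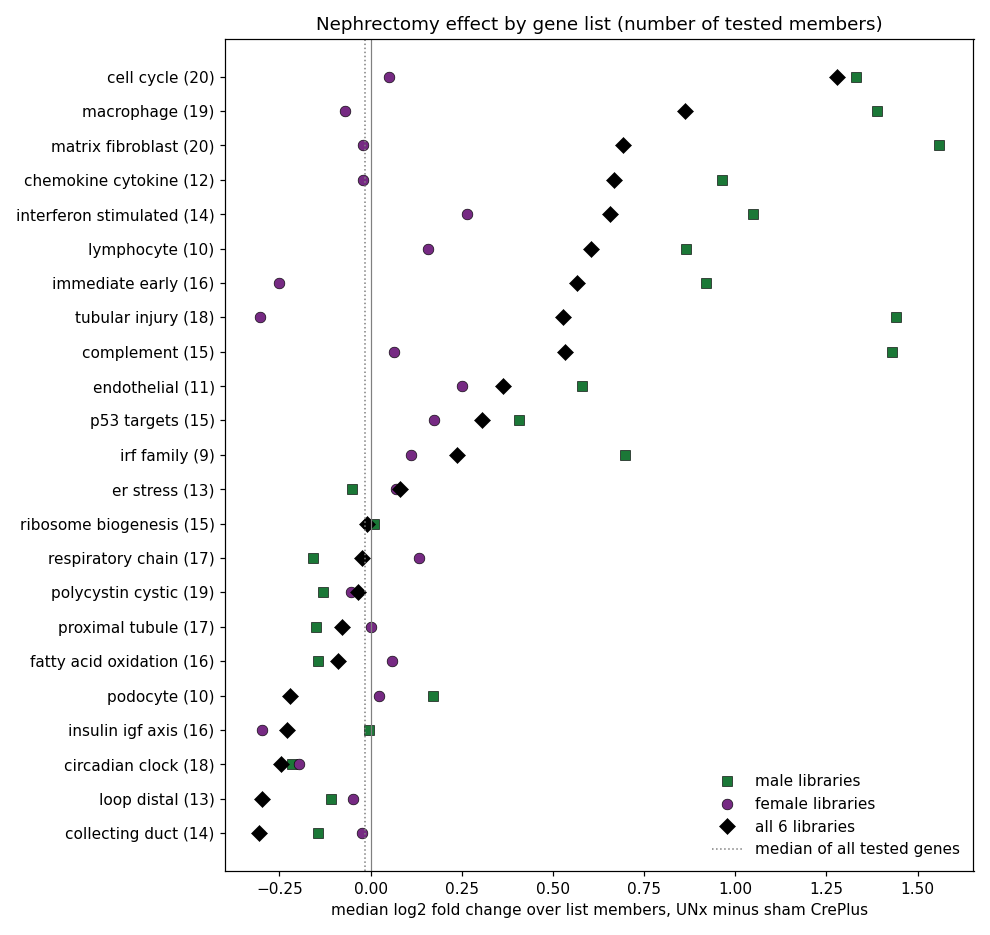
Median log2 fold change (x axis) of UNx against sham CrePlus kidneys over the tested members of 23 gene lists, with the number of members in brackets, for all 6 libraries (diamonds), male libraries (squares, 2 against 1) and female libraries (circles, 1 against 2); the dotted line is the median of all tested genes. For the matrix list the median was 1.56 in males and -0.02 in females, and for the circadian clock list it was -0.21 and -0.20.

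The clock list had nearly equal medians within males (-0.21) and within females (-0.20). Of its 18 genes 4 were positive, and the median log2 fold change was -0.25, or -0.10 without UNx replicate 2. Per3, a repressor of the clock's negative limb, had 26.2, 16.2 and 20.7 CPM in UNx kidneys and 36.7, 35.6 and 40.5 CPM in sham kidneys. Its log2 fold change was -0.84 ± 0.21, with -0.93 in males and -0.81 in females. Tef, an output factor that binds D-box elements, had 304, 287 and 284 CPM in UNx kidneys and 333, 386 and 464 CPM in sham kidneys. The activators stood on the other side: Arntl, which encodes BMAL1, had 7.37, 13.7 and 8.36 CPM in UNx kidneys and 6.82, 3.73 and 3.21 CPM in sham kidneys. Npas2, a partner of BMAL1, had 9.20, 16.6 and 7.12 CPM in UNx kidneys and 3.77, 3.40 and 6.33 CPM in sham kidneys. Per3 also had 16.4, 23.7 and 28.2 CPM in UNx CreMinus kidneys and 43.3, 43.7 and 32.5 CPM in sham CreMinus kidneys, which share no library with the CrePlus comparison. The time of day at which kidneys were taken is not given in the labels used here, and its part in these values was not tested.

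Growth factor genes gave no common direction. Of 16 genes of the insulin and IGF axis 4 were positive, with a median log2 fold change of -0.23, of -0.01 within males and of -0.30 within females, and of -0.12 to -0.14 without any 1 library but UNx replicate 1. Irs2, an adaptor of the insulin receptor, had 14.3, 15.8 and 12.5 CPM in UNx kidneys and 18.7, 14.97 and 31.2 CPM in sham kidneys. Genes of the mTOR pathway, which controls cell size, had a median of -0.04, and those of ribosome biogenesis -0.01. Among the ribosome biogenesis genes Myc, the growth-promoting transcription factor, had 8.72, 9.75 and 7.07 CPM in UNx kidneys and 6.65, 6.12 and 5.04 CPM in sham kidneys. Cholesterol synthesis genes had a median of 0.01, with 11 of 20 positive. Cyp51, the sterol demethylase of that pathway, had 183, 299.6 and 229 CPM in UNx kidneys and 292, 332 and 345 CPM in sham kidneys, which overlapped, and its log2 fold change was -0.45 ± 0.19. Medians of the fatty acid oxidation, respiratory chain and glycolysis lists were -0.09, -0.02 and -0.02.

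Within each sex the comparison rested on 2 UNx libraries against 1 sham library in males and 1 against 2 in females, with the spread taken from the 8 group-by-sex means of all 12 libraries. In males 11 genes passed (0.0735%), 4 higher and 7 lower, and in females 0 passed, with 325 at an unadjusted p under 0.05. Bcl6, Cish and Kcnt1 were among the 11, with male log2 fold changes of 3.38, -2.12 and -2.48. Fasn, Thrsp, Ucp1 and Cfd, genes of fat synthesis and fat tissue, were also among them. Fasn had 95.6, 88.6 and 71.2 CPM in UNx kidneys and 95.5, 88.3 and 292 CPM in sham kidneys, so that sham replicate 3 alone stood apart. Nxpe3 and Emp1 on the higher side and Upp2 on the lower side were further genes among them. Nxpe3 had 19.4, 24.5 and 21.6 CPM in UNx kidneys and 29.9, 28.7 and 4.84 CPM in sham kidneys. Here too sham replicate 3 alone stood apart, and the log2 fold change over both sexes was 0.04. The difference between the male and the female effect passed for 0 genes, with 805 at an unadjusted p under 0.05 and a lowest adjusted p of 0.16, so a difference between the sexes was not shown for any gene. All 16 genes of smallest p described above had the same sign in males and in females, and 12 were larger in males. The shared sign follows from choosing genes whose groups did not overlap, so it says nothing further about the sexes.

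Whether nephrectomy acted differently with and without Cre was tested as the interaction of surgery and Cre status. In edgeR 0 genes passed, with 277 (1.85%) at an unadjusted p under 0.05, and DESeq2 also called 0. UNx CreMinus replicate 1 and sham CreMinus replicate 3 were read as male and the other CreMinus libraries as female. Sex was thus balanced between surgeries without Cre but not with Cre, so the interaction also carries a sex difference. With a sex term 0 genes passed as well. Of the 16 genes of smallest p, 14 had the same sign in CreMinus kidneys, a count not set against the share over all genes. Since they were chosen for their CrePlus values, their larger size there is a description. Kcnt1 had 8.46, 9.61 and 11.9 CPM in UNx CreMinus kidneys and 22.5, 24.8 and 22.4 CPM in sham CreMinus kidneys, without overlap, and its log2 fold change there was -1.22 ± 0.32. Cish had 15.5, 30.8 and 25.2 CPM in UNx CreMinus kidneys and 29.6, 22.3 and 21.0 CPM in sham CreMinus kidneys. Its interaction of -1.42 ± 0.43 did not pass, with an adjusted p of 1.0. Cyp24a1 averaged 172 ± 11.6 CPM in UNx CreMinus kidneys and 61.7 ± 36.5 CPM in sham CreMinus kidneys (SD, n = 3 each). Across all 14970 genes the CrePlus and CreMinus fold changes were related with Pearson's r of 0.22 and Spearman's rho of 0.27. The 2 comparisons share no library, and this is a description, since genes are not independent replicates.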

How the data were processed

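Whole-number read counts per gene were deposited by the authors for 12 kidney libraries. The submitters' processing notes name cutadapt 1.11, FastQC 0.11.5, HTSeq and DESeq2 and the builds mm10 and GRCm38; for the aligner, annotation and strand option the entry is "not given in the sources used here". The kit, per the labels' protocols, was SMART-Seq v4, which leaves strand unmarked. The authors' deposited table of the 6 CrePlus libraries holds log2 fold changes, a test score, a p-value and an adjusted p-value per gene. The authors' deposited mean of scaled counts, a signal, was not used. Its fold changes are UNx over sham.

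The table had 24067 rows; 5 symbols repeated with identical counts were kept once. Counts were fitted in R 4.3.3 with edgeR 4.0.16 (filterByExpr, TMM, glmQLFit and glmQLFTest) as 4 group means over 12 libraries, and p-values were adjusted by Benjamini-Hochberg over 14970 genes. CPM use TMM-scaled totals; the SE is the log2 fold change over the square root of F. Sex was read from the summed CPM of Ddx3y, Kdm5d, Eif2s3y and Uty against Xist. Alternatives were DESeq2 1.42.0, RLE scaling, no filter, sex and depth terms, single sexes, the 6 libraries alone, counts thinned to 18914300 per library, and leaving out each library. Replicate numbers follow accession order and imply no pairing. PCR duplicates are counted as reads. Fits were tested on simulated data.

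Named genes were Pkd1, Irf5, per direction the 8 smallest-p genes with at least 1 CPM and no overlap, the 2 members of smallest p of each list, and the 5 genes per direction of smallest adjusted p in the authors' table. Aldh1a1, Mki67, Havcr1, Col1a1, Csf1r, Ifit1, Aqp1, Arntl, Npas2, Irf4, Rcan1, Ocel1, Cyp24a1, Fasn, Thrsp, Nxpe3, Emp1, Upp2, Esr1 and Rnf24 were chosen after their values were seen. The comparison, the 39 gene lists (4 of which only told the sexes apart) and the rules were chosen with earlier results of these data known. Of 548 list entries, 514 were among the tested genes, and 14817 tested genes had a RefSeq position. A few single-gene results that the rule named are left out here.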

Additional observations from a re-analysis of the deposited data

How the results depend on the processing

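No paired analysis was possible because the labels give the samples no replicate numbers. No gene passed under RLE scaling, without the filter, with thinned counts, with a sex term, with sex and depth terms, in the 6 libraries alone or without any 1 library. Genes called were 11 with DESeq2, 20 with DESeq2 on the 6 libraries (added after seeing the data), 11 in males, and 1 (Rnf24, lower) in the 6 libraries with a sex term (also added). List members called were 3 with DESeq2 and 6 with DESeq2 on the 6 libraries, of 514 tested list entries in which some genes recur. Over all genes the shares called were 0.0891% and 0.155%. Unadjusted p under 0.05 held for 1575 genes with a sex term, 627 with sex and depth terms, 1816 in males, 325 in females and 541 to 1700 without 1 library (fewest without UNx CrePlus replicate 1, most without sham CrePlus replicate 1). For the interaction these counts were 568 and 557 with the first 2 and 163 to 793 without 1 library. The cause was not tested.

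The 16 genes of smallest p kept their direction under every alternative. They were chosen for groups without overlap in these same libraries, so that outcome was largely set by the choice. Log2 fold changes turned in females for Mcm3 (-0.0014), Lcn2 (-2.27), Col4a1 (-0.015), Cxcl10 (-0.045), C4b (-0.10), Ddit4 (-0.054), Hmox1 (-0.019), Upk1a (0.30), Cfd (2.23) and Ucp1 (1.57). With sex and depth terms they turned for Cys1 (0.033), Cd79b (-0.10), Cyp51 (0.0067), Tcf7l2 (0.10), Upk1b (-0.11) and Kcnq1ot1 (0.15). Deep and shallow libraries occurred together only in UNx CreMinus. There replicate 1, a male, had 42025815 counts and the others had 21964896 and 18914300. Every value with the depth term therefore rests on that single library. Leaving out 1 library gave -0.53 to 0.16 for Irf5, -5.798 to 1.19 for Cfd and -8.141 to 0.29 for Ucp1, the last 2 positive without sham CrePlus replicate 3. Of the other values of named genes, 1904 kept direction and side of the threshold and 30 passed where they had not. Sham CrePlus libraries had fewer counts than UNx CrePlus libraries, so genes at low CPM are less precise there.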

Other observations

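Immediate early genes, which respond to stress and handling within minutes, were positive in 13 of 16, with a median log2 fold change of 0.56, of 0.92 within males, of -0.25 within females and of 0.14 without UNx replicate 2. Dusp1, a phosphatase that switches off MAP kinases, had 31.5, 66.9 and 42.9 CPM in UNx CrePlus kidneys and 21.3, 22.2 and 30.2 CPM in sham CrePlus kidneys. Klf6, a zinc finger transcription factor, had 64.0, 80.03 and 61.6 CPM in UNx kidneys and 50.4, 50.9 and 36.9 CPM in sham kidneys. Among genes of the oxidative stress response the median was 0.00, with 8 of 15 positive. Hmox1, which degrades haem, stood at 265 CPM in UNx replicate 1 alone, with 37.5 and 16.2 CPM in the other UNx kidneys and 19.5, 13.3 and 22.6 CPM in sham kidneys. Genes of the unfolded protein response had a median of 0.08, with 10 of 13 positive, and heat shock genes one of -0.07, with 4 of 12 positive. Trib3, a pseudokinase induced by that response, had 1.90, 1.40 and 1.53 CPM in UNx kidneys and 1.10, 0.813 and 0.939 CPM in sham kidneys.

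Targets of the growth regulator YAP had a median log2 fold change of 0.03, with 7 of 14 positive. Ctgf, a matricellular protein among them, had 131, 160 and 105 CPM in UNx kidneys and 105, 60.8 and 55.9 CPM in sham kidneys. Wnt pathway genes had a median of -0.02, with 6 of 15 positive, and the EGF and ErbB list one of 0.01, with 5 of 9 positive. Renin-angiotensin genes had a median of -0.05, with 3 of 8 positive. Agtr1a, the angiotensin II receptor, had 62.1, 59.2 and 55.5 CPM in UNx kidneys and 53.6, 46.7 and 53.7 CPM in sham kidneys. Ribosomal protein genes were positive in 1 of 15, with a median of -0.09. Markers of adrenal, fat and other tissues had a median of -0.63 over 8 tested genes, which was -0.25 without sham replicate 3 and -1.32 without UNx replicate 3, and Cidec, a lipid droplet protein, stood at 6.13 CPM in sham replicate 3 and at no more than 0.383 CPM in the other CrePlus libraries. Urothelial markers had a median of -0.16 over 3 tested genes, of -0.04 without UNx replicate 1 and -0.30 without UNx replicate 3, with a summed level of 2.13 to 3.89 CPM in UNx kidneys and 2.42 to 3.11 CPM in sham kidneys. Reads of Esr1, part of whose sequence is used in tamoxifen-inducible Cre constructs, had 42.0, 55.6 and 23.7 CPM in UNx kidneys and 31.1, 30.03 and 26.8 CPM in sham kidneys.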
